A study of Mus musculus with 8 samples.

Results

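The genes described here are Il1b and the parts of the inflammasome pathway that make, process or sense its product in mouse liver: Il1b, Il1a, Il1rn, Il18, Nlrp3, Nlrp6, Nlrp12, Pycard, Casp1 and Gsdmd. The 10 genes were chosen by name, out of 22180 genes with a probe set of exactly 1 symbol, and each is represented by its probe set with the highest mean over all arrays. The set was drawn up because Il1b and Nlrp12 were already known from these arrays to lie lower in the knock-in, just short of the threshold (limma adjusted p = 0.0552 each). The differences of these genes are therefore given as a description and not as a test, and the question asked of the other 8 genes is whether they lay lower as well.

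Liver RNA was measured on Affymetrix whole-transcript arrays in 4 samples from Tm6sf2 knock-in mice and 4 samples from wild type mice. Knock-in mice carry the E167K form of Tm6sf2, which acts in the endoplasmic reticulum when lipid is loaded onto very low density lipoprotein. Wild type mice were their littermates, and all animals were male, of the strain labelled C57BL/6J, and their age is not given in the sources used here. The labels disagree on diet: 20 weeks of high-fat feeding stand in the text of the series, while the note on each array has 14 weeks of a fat-free diet high in sucrose or of chow. Whether each array comes from its own animal is not stated, and the p-values cover only the spread between these arrays, which may be technical in part. Whether the knock-in mice carried 1 or both variant alleles, and from how many founders they came, is not given in the sources used here.

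Interleukin 1 beta is made as an inactive precursor, mostly by macrophages, monocytes and neutrophils, once Toll-like or cytokine receptors have switched on NF-kB. An inflammasome is a protein complex in which a sensor such as NLRP3 gathers the adaptor ASC, the product of Pycard, and activates caspase-1. Caspase-1 then cuts the precursors of interleukin 1 beta and interleukin 18 and the pore-forming protein gasdermin D, through which the cytokines leave the cell. In liver the resident macrophages, the Kupffer cells, are the best known site of these steps. Transcript levels do not show whether a precursor was cut or released.

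All arrays had similar distributions, with medians between 3.73 and 3.80 on the log2 scale, and any pair of arrays correlated at 0.984 to 0.991 over the probe sets with 1 symbol. The 6 hepatocyte markers were above the dim limit in every array. That limit, the 40th percentile of an array, lay between 3.46 and 3.50. Tm6sf2 was at 9.66 ± 0.27 in knock-in and 9.72 ± 0.22 in wild type arrays (log2, SD, n = 4 each), and since the variant is a coding change, its level does not check the genotype labels. Across 13449 tested genes, 9 (0.0669%) had a limma adjusted p under 0.05, and 1519 (11.3%) had an unadjusted p under 0.05.

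The promoters of Il1b and Nlrp12 are shown because their arrays stood apart between the genotypes, and that of Il1a because it lies next to Il1b on chromosome 2 and its arrays overlapped. Each sequence runs from 250 bases before the start site to 50 bases after it, from RefSeq on GRCm38.p6. Il1b lies on the minus strand at chr2:129371090-129371389, Il1a on the minus strand at chr2:129309923-129310222 and Nlrp12 on the minus strand at chr7:3249691-3249990. Capitals mark matches to a TATA box (TATAAA, on the strand of the gene) and, on both strands, to C/EBP (TTNNGNAA), AP-1 (TGANTCA), PU.1 (GAGGAA) and the NF-kB consensus.
Il1b: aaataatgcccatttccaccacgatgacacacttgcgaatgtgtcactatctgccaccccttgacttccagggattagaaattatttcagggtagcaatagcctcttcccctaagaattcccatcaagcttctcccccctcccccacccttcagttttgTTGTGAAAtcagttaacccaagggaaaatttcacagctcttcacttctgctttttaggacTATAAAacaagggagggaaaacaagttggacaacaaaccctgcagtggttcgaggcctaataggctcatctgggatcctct
Il1a: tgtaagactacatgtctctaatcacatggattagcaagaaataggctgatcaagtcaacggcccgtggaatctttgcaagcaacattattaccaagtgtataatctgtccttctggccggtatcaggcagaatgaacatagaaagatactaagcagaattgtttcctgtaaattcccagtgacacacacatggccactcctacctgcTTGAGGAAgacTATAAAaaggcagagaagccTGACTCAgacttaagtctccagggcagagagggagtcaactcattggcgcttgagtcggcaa
Nlrp12: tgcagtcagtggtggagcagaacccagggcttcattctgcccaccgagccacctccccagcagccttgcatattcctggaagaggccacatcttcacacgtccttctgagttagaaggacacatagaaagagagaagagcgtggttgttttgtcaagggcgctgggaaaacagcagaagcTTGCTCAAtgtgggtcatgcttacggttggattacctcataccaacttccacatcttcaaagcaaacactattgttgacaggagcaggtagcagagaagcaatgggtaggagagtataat

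Il1b held a TATA box from base -31 to -26 of the start site and a C/EBP match from -91 to -84. Il1a held a TATA box from -32 to -27, an AP-1 match from -12 to -6, and a C/EBP match from -43 to -36 that overlaps a PU.1 match from -41 to -36. Nlrp12 held a C/EBP match from -70 to -63 and no match to the other motifs in this window. Of 32851 promoter windows of the same length, 8.32% held the TATA box, 40.7% the C/EBP motif, 7.81% the AP-1 motif, 28.3% the PU.1 motif and 8.46% the NF-kB consensus. These matches describe letters and say nothing of which factor was bound in these livers.

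Il1b lay lower in every knock-in array than in any wild type array. Its log2 values were 5.20, 5.88, 5.68 and 6.22 in knock-in arrays, against 7.27, 7.75, 7.79 and 6.96 in wild type arrays (probe set 17391565). The highest knock-in array and the lowest wild type array were 6.22 and 6.96, and all 8 arrays were above the dim limit. The difference, knock-in minus wild type, was -1.70 (log2, SE 0.25), a level 3.25-fold lower in the knock-in. Ranked by size of change, it stood in place 20 of 13449 tested genes. In bulk liver, fewer cells that make Il1b and less Il1b RNA per cell cannot be told apart.

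Il1a, the sister cytokine, whose precursor is active without cutting, did not lie lower. Its values were 6.85, 7.86, 7.32 and 7.62 in knock-in arrays, against 7.34, 6.90, 7.59 and 7.28 in wild type arrays. The groups overlapped throughout, and the difference was 0.14 (SE 0.22, 95% interval -0.37 to 0.64, limma adjusted p = 0.877). Its sign turned, to -0.012, without knock-in replicate 2. Il1a and Il1b are adjacent among tested protein-coding genes of chromosome 2.

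Il1rn, the receptor antagonist that competes with both cytokines for their receptor, was at 6.28, 6.77, 5.93 and 6.26 in knock-in arrays, against 6.69, 6.40, 6.32 and 6.57 in wild type arrays. Knock-in arrays held both the highest and the lowest value. The difference was -0.19 (SE 0.17, 95% interval -0.58 to 0.20, adjusted p = 0.738).

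Il18, the other cytokine that caspase-1 cuts, leaned the opposite way to Il1b. Its values were 7.60, 8.15, 8.04 and 8.26 in knock-in arrays, against 7.50, 7.91, 7.25 and 7.54 in wild type arrays. Knock-in replicates 2, 3 and 4 were above all wild type arrays, and knock-in replicate 1 was within their range. The difference was 0.46 (SE 0.18, 95% interval 0.06 to 0.86, unadjusted p = 0.0276) and did not pass over all genes (limma adjusted p = 0.363).

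**Figure D1:**
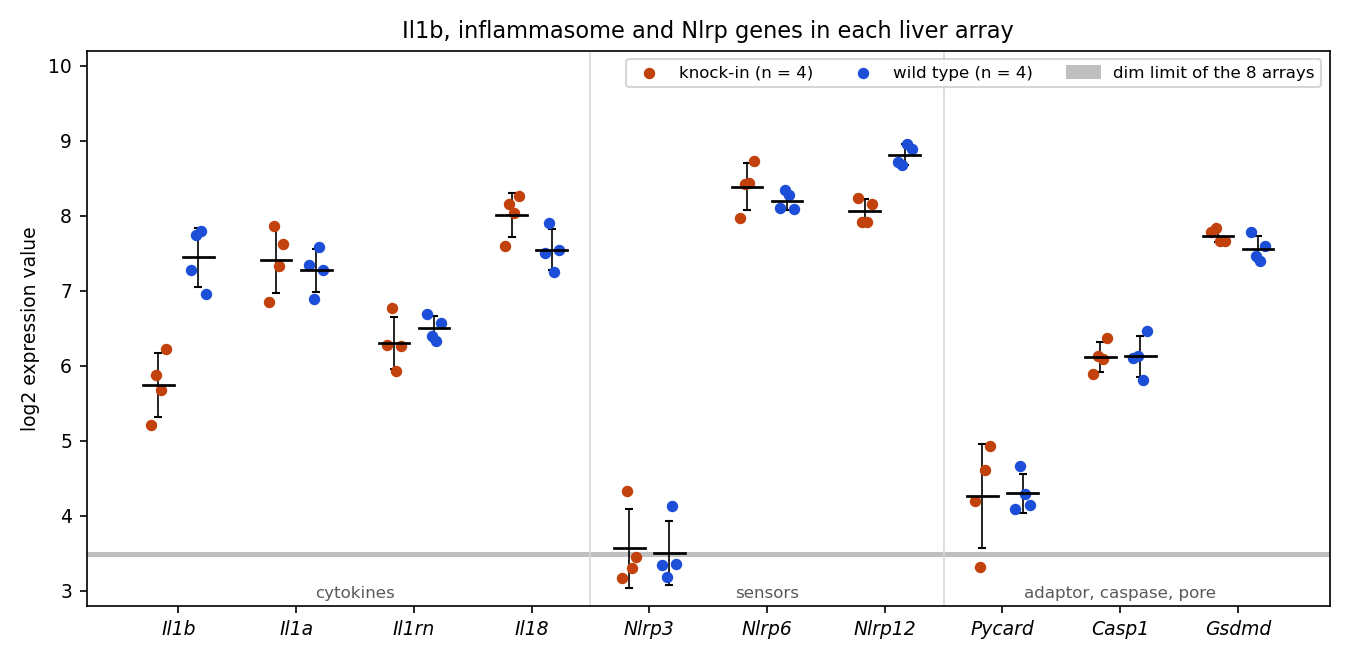
Log2 expression value (vertical axis) of the 10 genes in each of 4 knock-in arrays (orange, left of each pair) and 4 wild type arrays (blue, right), with group mean (bar) and SD (whiskers); the grey band is the dim limit, 3.46 to 3.50. The knock-in and wild type points stand apart for Il1b and Nlrp12 and overlap for the other 8 genes.

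Nlrp12, a sensor of the NLR family known in mouse myeloid cells as a brake on NF-kB signalling, was the other gene whose groups stood apart. Its values were 8.24, 7.92, 7.92 and 8.16 in knock-in arrays, against 8.71, 8.67, 8.96 and 8.90 in wild type arrays (probe set 17485497). The highest knock-in array was 8.24 and the lowest wild type array 8.67. The difference was -0.75 (SE 0.11), smaller on the log2 scale than that of Il1b but with a smaller spread, 0.16 in knock-in and 0.14 in wild type arrays (SD, n = 4 each) against 0.42 and 0.40 for Il1b. All knock-in arrays lay below all wild type arrays in 3.2% of tested genes. Since this contrast chose Il1b and Nlrp12, nothing is read from their place in that share.

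Nlrp12 is known for a coding difference between C57BL/6J and other C57BL/6 substrains. Nnt, the mitochondrial transhydrogenase, which carries a deletion in C57BL/6J and not in several other substrains, moved with genotype in these arrays. Nnt was at 9.45, 9.37, 9.41 and 9.13 in knock-in arrays, against 8.27, 8.21, 8.28 and 8.38 in wild type arrays, and rose by 1.05 (SE 0.09, limma adjusted p = 0.00951). Whether a difference in substrain takes part in the values of Nlrp12 or Il1b was not tested.

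Nlrp6, a sensor best known from intestinal epithelium, did not lie lower. Its values were 7.97, 8.42, 8.44 and 8.73 in knock-in arrays, against 8.10, 8.35, 8.27 and 8.09 in wild type arrays. Knock-in replicates 2, 3 and 4 were above the wild type range and knock-in replicate 1 below it. The difference was 0.19 (SE 0.15, 95% interval -0.16 to 0.54, limma adjusted p = 0.709).

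Nlrp3, the sensor that responds to crystals, ATP and other danger signals, was too dim to test. Its values were 3.17, 4.33, 3.30 and 3.45 in knock-in arrays, against 3.35, 3.18, 4.12 and 3.36 in wild type arrays. In each group 1 array was above the dim limit, knock-in replicate 2 and wild type replicate 3. A difference in Nlrp3 was therefore not detectable at this signal.

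In the machinery downstream of the sensors, Casp1, Pycard and Gsdmd, differences ran from -0.04 to 0.17. The interval of Pycard was wide, from -0.74 to 0.67. Casp1, the protease that cuts the cytokine precursors, was at 5.89, 6.13, 6.09 and 6.37 in knock-in arrays, against 6.10, 6.13, 5.80 and 6.46 in wild type arrays. The difference was -0.0051 (SE 0.15, 95% interval -0.35 to 0.34, limma adjusted p = 0.995). Its sign turned without knock-in replicate 1 (0.07), knock-in replicate 3 (0.0055) or wild type replicate 4 (0.11).

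Pycard, the gene of the adaptor ASC, varied most between arrays of 1 group. Its values were 4.19, 3.32, 4.61 and 4.93 in knock-in arrays, against 4.09, 4.67, 4.29 and 4.15 in wild type arrays. Knock-in replicate 2 was below the dim limit. The difference of -0.04 had an SE of 0.31 and a 95% interval of -0.74 to 0.67 (limma adjusted p = 0.981), and was 0.28 without knock-in replicate 2 and 0.09 without wild type replicate 2.

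Gsdmd, whose product forms the pore once caspase-1 has cut it, was at 7.78, 7.83, 7.66 and 7.66 in knock-in arrays, against 7.78, 7.47, 7.39 and 7.60 in wild type arrays. All knock-in arrays lay in the upper part of the wild type range or just above it. The difference was 0.17 (SE 0.10, 95% interval -0.06 to 0.41, limma adjusted p = 0.574). A dimmer second probe set of Gsdmd was at 4.36 ± 0.19 in knock-in and 4.34 ± 0.39 in wild type arrays (SD, n = 4 each), a difference of 0.02. Each of the other 9 genes had 1 probe set.

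Set against Il1b, the 7 other tested genes besides Nlrp12 had 4 differences above 0 and 3 below it. None passed over all genes, 1 of the 7 (Il18) had an unadjusted p under 0.05, where the share over all genes was 11.3%, and in none did the groups stand apart, against 7.16% of all genes. Their 95% intervals ran from -0.74 at the lowest (Pycard) to 0.86 at the highest (Il18). None of these intervals reached the difference of -1.70 measured for Il1b. Since Il1b was chosen for that difference, nothing is read from the comparison. Smaller differences lie within the intervals, in either direction except for Il18, whose interval lay above 0 (0.06 to 0.86).

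**Figure D2:**
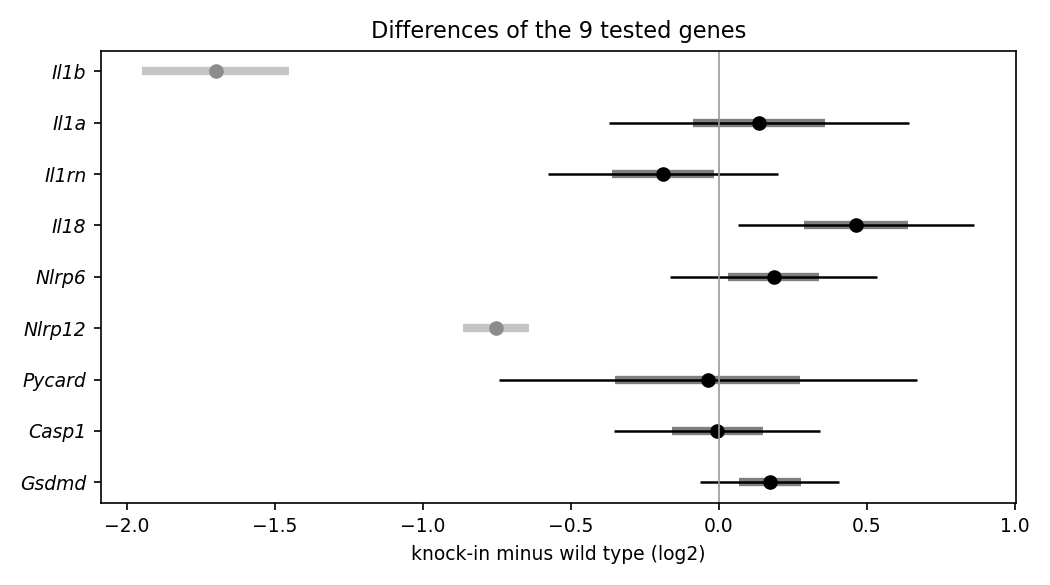
Difference, knock-in minus wild type (horizontal axis, log2), of the 9 tested genes: points are limma estimates, thick bars ± 1 SE and thin lines 95% intervals. Il1b (-1.70) and Nlrp12 (-0.75), which led to the choice of the genes and have no interval drawn, are in grey, and 6 of the other 7 intervals include 0, the exception being Il18 (0.06 to 0.86).

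Beyond the 10 genes, 8 lists of pathway genes held 67 further tested genes. None of the 67 passed over all genes, with 6 higher and 2 lower at unadjusted p under 0.05, where the shares over all genes were 6.01% higher and 5.29% lower. The median difference over all tested genes was 0.0046.

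Among receptors and binding proteins of the interleukin 1 family, 7 of 9 listed genes were tested, 4 were above 0 and 3 below it, and their median was 0.22. Il1r1, the receptor that binds both Il1a and Il1b products, had 10.78, 10.22, 10.53 and 10.48 in knock-in arrays, against 10.04, 9.30, 9.12 and 9.51 in wild type arrays. Every knock-in array was above every wild type array, as in 3.96% of tested genes. The difference was 1.01 (SE 0.20, unadjusted p = 0.000708, limma adjusted p = 0.119), so it did not pass over all genes. The lowest adjusted p under any alternative was 0.0585.

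Sigirr, a receptor of the same family that restrains its signalling, was also higher in every knock-in array, at 6.06, 5.82, 5.89 and 6.15, against 5.75, 5.42, 5.70 and 5.18 in wild type arrays. Its difference was 0.47 (SE 0.14, limma adjusted p = 0.285). The coreceptor Il1rap, named after its value was seen, was at 10.41 ± 0.12 in knock-in and 10.15 ± 0.25 in wild type arrays (SD, n = 4 each), a difference of 0.26 (SE 0.13, adjusted p = 0.494). The remaining 4 tested genes of this list lay between -0.29 and 0.22.

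In interleukin 1 family ligands, 6 of 10 listed genes were tested, 3 above and 3 below 0, with a median of -0.04. Il1b and Il18 were the ligands with an unadjusted p under 0.05. Receptor signalling had 12 of 14 genes tested, 4 above and 8 below 0, with a median of -0.04. Tab1, an adaptor of the kinase TAK1, was at 0.36 in it (SE 0.14, limma adjusted p = 0.383).

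Of 29 listed sensors and other NLR genes, 13 were tested, 4 above and 9 below 0, with a median of -0.08. Nlrp12 was the tested gene of this list with an unadjusted p under 0.05, and the other 12 lay between -0.32 and 0.23. Naip2, Naip5 and Naip6 are near-identical copies in the mouse genome, so the value of each is uncertain. Adaptors, caspases and pore proteins had 8 of 8 tested, 4 above and 4 below 0, with a median of 0.01 and a range of -0.14 to 0.19.

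NLRP3 activation and control had 10 of 11 tested, 5 above and 5 below 0, with a median of 0.03. Irgm1, an interferon-inducible GTPase, lay lower in every knock-in array, at 7.02, 7.05, 7.05 and 7.31, against 7.42, 7.76, 7.48 and 7.36 in wild type arrays. Its difference was -0.39 (SE 0.11, limma adjusted p = 0.260). Knock-in replicate 4 stood apart from the other 3 knock-in arrays for this gene.

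NF-kB priming genes, which include Toll-like receptors and NF-kB subunits and inhibitors, had 12 of 13 tested, 3 above and 9 below 0, with a median of -0.08. Nfkbie, an inhibitor of NF-kB, was at -0.44 (SE 0.19, limma adjusted p = 0.435), with 4.82 ± 0.40 in knock-in and 5.26 ± 0.17 in wild type arrays (SD, n = 4 each). The other 11 lay between -0.22 and 0.12.

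Genes that interleukin 1 is known to induce had 8 of 12 tested, 5 above and 3 below 0, with a median of 0.20. The acute phase genes Saa3, Saa2 and Lcn2 were at 1.07 (SE 0.28), 1.42 (SE 0.49) and 1.01 (SE 0.36), with limma adjusted p of 0.219, 0.333 and 0.338. Saa3 values were 7.76, 7.18, 6.91 and 7.59 in knock-in arrays, against 6.42, 5.80, 5.92 and 7.01 in wild type arrays, so the groups overlapped through wild type replicate 4. Saa genes are close copies, and the value of each is uncertain. Among the inflammatory members, Icam1 was at -0.23 (SE 0.15), Tnf at -0.12 and Cxcl2 at -0.08 (SE 0.23 each). Cxcl1 and Ccl2 were at 0.22 (SE 0.32) and 0.18 (SE 0.29). Tnf, Cxcl2 and Ccl2 were dim, with group averages of 4.02 to 4.34. All of these inflammatory genes were named after their values were seen.

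**Figure D3:**
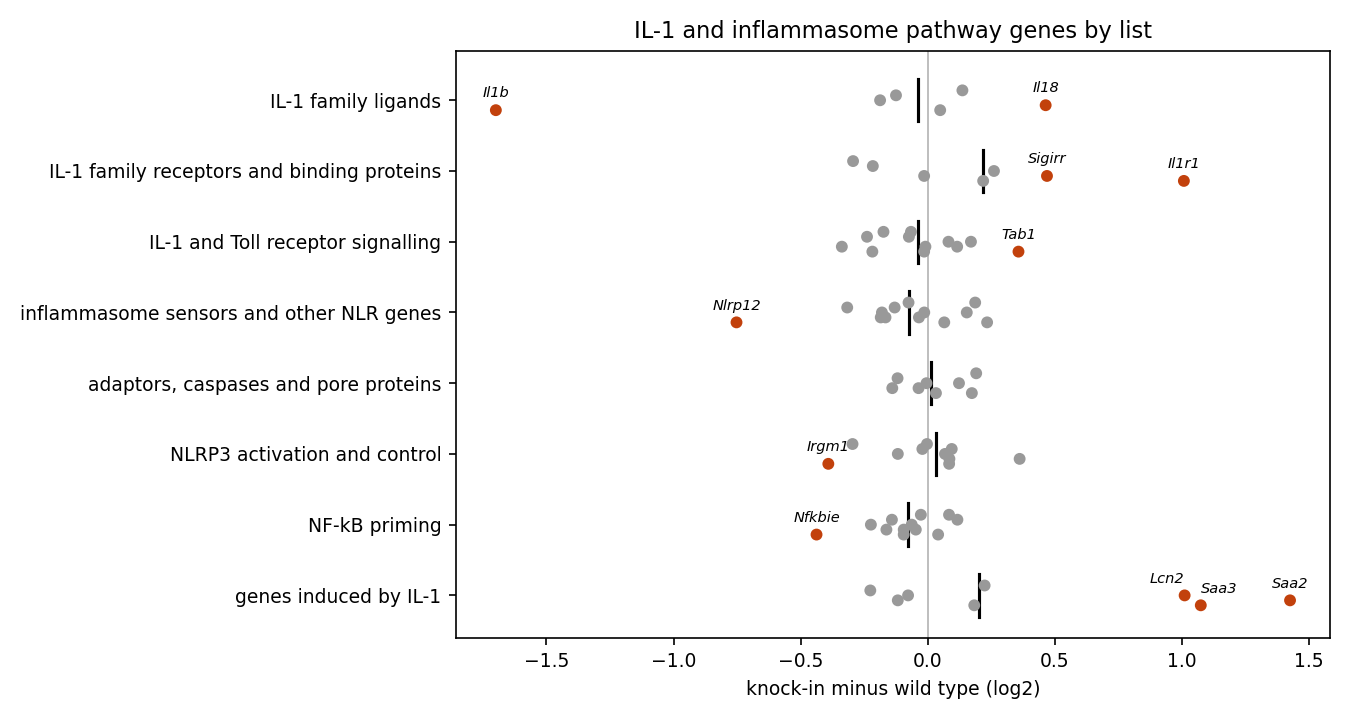
Difference, knock-in minus wild type (horizontal axis, log2), of each tested gene of 8 pathway lists (rows): orange points have an unadjusted p under 0.05 and are named, grey points have not, and black bars are list medians. Il1b (-1.70) lies far from the other ligands, Il1r1 (1.01) and Sigirr (0.47) lie at the upper end of the receptors, and none of the points passed over all genes.

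Marker levels of the cells that make Il1b overlapped between the groups. All 10 Kupffer cell markers were tested, and their mean log2 value was 8.07 to 8.73 in knock-in arrays, against 8.14 to 8.93 in wild type arrays. Their summed level, as log2, was 11.7 to 12.4 in knock-in arrays, against 11.8 to 12.4 in wild type arrays. Of these markers 6 lay above 0 and 4 below, and 0 had an unadjusted p under 0.05. Among knock-in arrays, replicate 1 had the lowest Kupffer level (8.07) and the lowest Il1b (5.20), and replicate 4 the highest of both (8.73 and 6.22). Among wild type arrays, replicate 4 had the highest Kupffer level (8.93) and the lowest Il1b (6.96). The part of Kupffer cell content in the values of Il1b was not tested.

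Means below are over tested markers, and summed levels over all listed markers with a probe set, dim ones included. The sums thus hold 9 monocyte and macrophage, 10 neutrophil and 5 dendritic cell markers. Of 10 listed monocyte and macrophage markers, 8 were tested, with means of 4.95 to 5.38 in knock-in arrays, against 4.85 to 5.18 in wild type arrays. Their summed levels were 9.31 to 9.95 against 9.49 to 9.92. Of the 8 tested, 5 lay above 0 and 3 below it. Of 10 neutrophil markers, 4 were tested, with means of 4.01 to 4.47 in knock-in arrays, against 4.32 to 4.49 in wild type arrays. Their summed levels were 6.88 to 7.19 against 7.09 to 7.26. Of the 4 tested neutrophil markers, 1 lay above 0 and 3 below it, with a median of -0.16, and 0 had an unadjusted p under 0.05. The part of neutrophil content in the values of Il1b was not tested. Defining neutrophil genes, among them Ly6g, S100a8, Mmp8, Ngp and Camp, were below the dim limit in all 8 arrays, and S100a9 was above it in 1 knock-in array. Of 6 dendritic cell markers, 4 were tested, with means of 4.59 to 4.91 in knock-in arrays, against 4.41 to 4.70 in wild type arrays, and summed levels of 7.63 to 8.19 against 7.54 to 7.87. Of these 4 markers, 3 lay above 0 and 1, Itgax (-0.18), below it. Flt3, one of the 4, had an unadjusted p of 0.026, at 3.77 in knock-in and 3.34 in wild type arrays on average (limma adjusted p = 0.358). It was near the dim limit, and above it in 3 knock-in arrays and 1 wild type array. Siglech, too dim to test, went the other way, above the limit in 0 knock-in and 3 wild type arrays (averages 2.98 and 3.65).

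**Figure D4:**
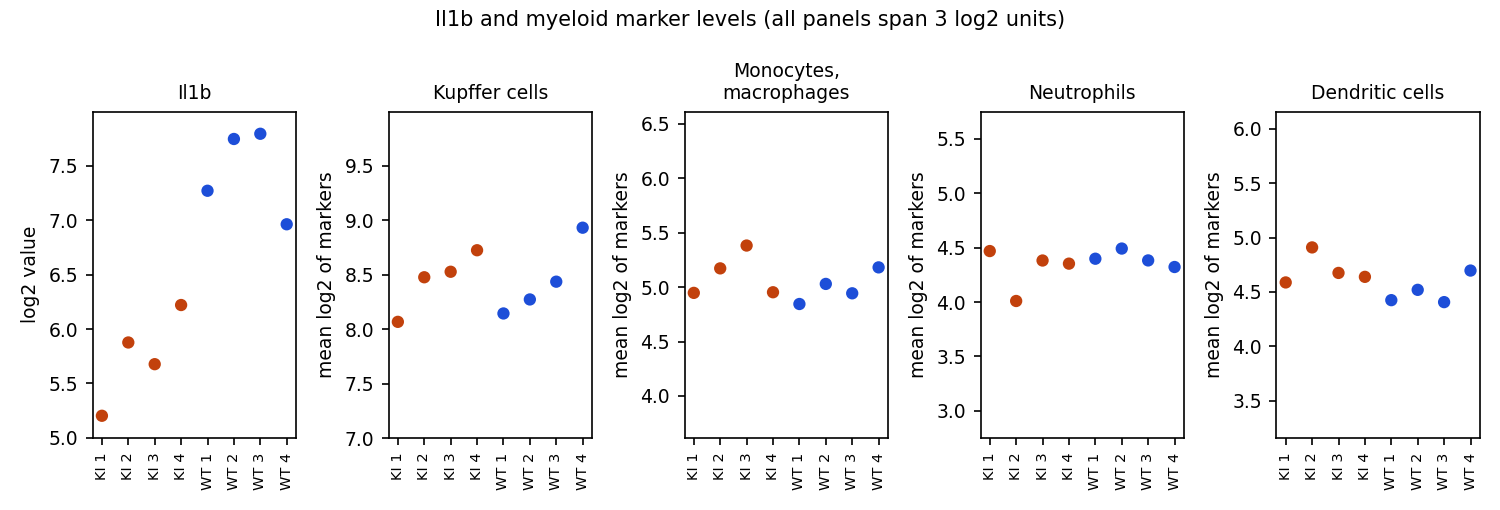
Il1b (log2 value, left) and the mean log2 value of the tested markers of 4 myeloid cell types in each of 4 knock-in arrays (orange, KI) and 4 wild type arrays (blue, WT), every panel spanning 3 log2 units. Il1b was chosen for its difference, and its groups stand apart (5.20 to 6.22 in knock-in and 6.96 to 7.79 in wild type arrays). Ranges of Kupffer cell markers (8.07 to 8.73 and 8.14 to 8.93) and of neutrophil markers (4.01 to 4.47 and 4.32 to 4.49) overlap.

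Within groups, Il1b was lowest in knock-in replicate 1 and highest in replicate 4, and among wild type arrays lowest in replicate 4 and highest in replicate 3. The genes most like it were ranked by Pearson r of each array's deviation from its group mean, over 8 arrays and as a description; the deviations of each group sum to 0, so fewer than 8 of them are free. The leading 6 were 4930579G18Rik, Setd1a, Arf2, Pcdhb17, Mgst1 and Zfp959, with r between 0.95 and 0.98. Of these, 4930579G18Rik lay around the dim limit, at 3.22 to 3.76. Of 13449 tested genes, 167 had an r of at least 0.8, and whether that is more than chance gives was not tested. The 6 were picked by this r, so their likeness to Il1b within groups follows from the choice. They differed between groups by -0.10 to 0.11. Among the other tested genes of the set, Nlrp6 had the highest r, 0.89, and Gsdmd the lowest, -0.56.

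The genes next to Il1b and Nlrp12 in RefSeq order are given as values. Since Il1b and Nlrp12 were chosen for their differences, smaller ones in their neighbours follow from that choice. The 10 nearest tested genes around Il1b, Il1a and Sirpa among them, lay between -0.23 and 0.25. The 5 nearest tested genes on the one side of Nlrp12 that holds any lay between -0.23 and 0.38. In 0 of these 15 genes did the groups stand apart, against 7.16% over the whole table. An unadjusted p under 0.05 was found for 1 of the 15, where the share over all genes was 11.3%. That gene was Cacng7, a calcium channel subunit near Nlrp12, at 0.38 (SE 0.13, limma adjusted p = 0.327). The 10 genes lie on chromosomes 2, 7, 9, 11 and 15, and Tm6sf2 lies on chromosome 8.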

How the data were processed

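For 8 liver arrays the authors deposited a table of normalized log2 values by probe set; per the labels' protocols, 400 ng of total RNA went into each biotin labelling. The submitters' processing notes name RMA and limma without versions. RMA equalises array distributions, so a shift of most genes would not show, and changes of dim probe sets are understated. The annotation version of the array is not given in the sources used here, nor is a build.

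Of 41345 probe sets, 23521 had exactly 1 symbol in the platform annotation, 1814 had several and 16010 were not listed with a gene; 23328 of the 23521 matched RefSeq by Entrez identifier. The probe set with the highest mean was kept per gene. Testing required values above the 40th percentile of the array in at least 4 of 8 arrays, which left 13449 of 22180 genes. The genotypes were compared across all tested genes with limma 3.58.1 (R 4.3.3), two-sided, with default lmFit and eBayes, genotype as the only term and Benjamini-Hochberg adjustment (threshold 0.05). The procedure was checked on simulated data. Differences are on the log2 scale and are knock-in minus wild type. Arrays have no read depth, and their number limits the precision.

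Named genes were the 10 members, up to 4 genes per list with the smallest unadjusted p under 0.05, and the 6 most like Il1b. Nnt was named besides, as a gene known to differ between C57BL/6 substrains. Of 10 members, 9 have promoters in the RefSeq table. The members and lists were chosen with earlier results of these data known; genes neighbouring Il1b and Nlrp12 were added after values were seen. Older symbols in the lists were matched through RefSeq synonyms. Alternatives were the filter, a further quantile normalization, a trended and robust prior, array weights, the mean of probe sets, a replicate block and leaving out each array.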

Additional observations from a re-analysis of the deposited data

Results flagged for a closer look

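Irgm1, an interferon-inducible GTPase, was flagged because 1 array stood far from the other 3 of its group. Knock-in replicate 4 had a log2 value of 7.31, where the other 3 knock-in arrays had 7.02 to 7.05. The check covered the members and the genes named by their place in a list, 36 groups of 4 arrays in all from 18 genes. No other group gave such an array, and chance flags about 1 group in 20.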

How the results depend on the processing

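Over all tested genes, 9 passed the threshold. The number was 2 with no filter, 32 with the stricter filter, 73 with the trended and robust prior, 25 with array weights, 24 with the mean of probe sets and 12 after a further quantile normalization. On leaving out single arrays it ran from 1 to 12. Of the 9 genes of the set that were tested, 0 passed by limma. Il18 was the 1 of the 7 besides Il1b and Nlrp12 with an unadjusted p under 0.05, against 11.3% of all genes. With the stricter filter, the mean of probe sets, array weights, and the trended and robust prior, 2 were past the threshold, Il1b and Nlrp12, and in each leave-one-out fit 0 were. Since this contrast led to the choice of Il1b and Nlrp12, their place on either side of the threshold is a description and supports nothing. Under those 4 alternatives the difference of Il1b was -1.70, -1.70, -1.63 and -1.70, and over all 15 its adjusted p ran from 0.0151 to 0.173. Leaving out single arrays gave -1.86 to -1.52 for Il1b and -0.81 to -0.70 for Nlrp12. The sign of Il1a (-0.012 to 0.32), Casp1 (-0.11 to 0.11) and Pycard (-0.26 to 0.28) turned when single arrays were left out, and Pycard was 0.0028 with array weights. With the replicate number as a block, 2 genes passed, and Il1b had limma adjusted p = 0.161 and Nlrp12 0.202. The block moved the SE of named genes in both directions, from 0.36 to 0.10 for Lcn2 and from 0.11 to 0.13 for Irgm1. Deviations of same-numbered arrays correlated at -0.11 to 0.10 over all tested genes. That correlation cannot settle whether same-numbered arrays are paired, and their pairing was not tested. The cause of these shifts was not tested. The stricter filter leaves out Pycard and Nlrp3, and the main filter leaves out Nlrp3, whose signal over background limits what can be said of it.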

Other observations

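Cell type markers outside the myeloid cells were also read on these arrays. Of 58 tested markers of all cell types, 0 passed over all genes by limma. At unadjusted p under 0.05, 3 were higher and 1 lower, or no larger a share than the 6.01% higher and 5.29% lower over all tested genes, so the values below are given as values only. Jchain, the joining chain of secreted antibodies, was at 5.66 in knock-in and 4.63 in wild type arrays on average (difference 1.04, SE 0.25, limma adjusted p = 0.184), while its fellow plasma cell gene Mzb1 was at 3.92 and 3.89. Lyve1, a hyaluronan receptor of sinusoidal endothelium, averaged 9.79 in knock-in and 9.07 in wild type arrays (difference 0.73, SE 0.23, limma adjusted p = 0.295). Of the same cells, Stab2 and Clec4g averaged 8.73 and 10.17 in knock-in, against 8.82 and 10.16 in wild type arrays. Pecam1 differed by 0.14 and Kdr by -0.17. The mean of the 5 endothelial markers, Lyve1 included, was 9.178 to 9.302 in knock-in and 9.082 to 9.178 in wild type arrays, ranges that met without overlapping. Serpina1a, a secreted protease inhibitor of hepatocytes, averaged 9.91 in knock-in and 10.27 in wild type arrays (limma adjusted p = 0.340). The other 5 hepatocyte markers differed little, with Tat at 0.12, Alb at 0.04, Apoa1 at 0.02, Ttr at 0.01 and Cps1 at -0.02.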
